A study of Mus musculus with 6 samples.

Results

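The cytochrome P450 (Cyp) family was examined in kidneys of MRL/MpJ mice, called MRL here, and of MRL/MpJ-Fas lpr/lpr mice, called LPR. LPR mice carry the lpr mutation of Fas, a death receptor of lymphocytes, in every cell of the body, share the MRL/MpJ background with the controls, and develop a lupus-like nephritis. All mice were females of 6 months of age kept under specific pathogen-free conditions without treatment, and each of the 3 MRL and 3 LPR kidneys gave 1 single-colour array on 1 slide. The members were the probes whose gene name on the array begins with Cyp and a digit. These were 137 of 56605 probes, for 102 genes. A probe entered the tests if 3 or more of the 6 arrays showed it well above background, which left 91 probes and 66 Cyp genes among 25805 genes tested, and 61 of the 66 were above background on all 6 arrays. The brightest tested probe stands for a gene. Levels are log2 intensities minus the 75th percentile of the array, so a level can be compared between mice but not between probes, and a log2 change is the mean of the LPR mice minus the mean of the MRL mice. A gene passed where the adjusted p of limma, corrected by Benjamini-Hochberg over all 39924 tested probes, was under 0.05.

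Cytochrome P450 enzymes are heme proteins of the endoplasmic reticulum or of mitochondria that insert an oxygen atom into their substrate, using electrons passed on from NADPH. In the kidney they are most abundant in the proximal tubule. Enzymes of the Cyp2j and Cyp2c subfamilies are known to turn arachidonic acid into epoxides, those of Cyp4a and Cyp4f hydroxylate the end of fatty acids and leukotrienes, and a small group makes and breaks down vitamin D hormone, steroids, sterols and retinoic acid.

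The marker genes of the kidney were checked first. All 10 proximal tubule markers and all 6 markers of other nephron segments were above background on all 6 arrays. Of the 10 leukocyte markers, 8 were higher in LPR mice (80%, against 7.12% of all genes) and 0 were lower. Ptprc (0.39) and Itgam (-0.09) did not pass, and the groups overlapped in Itgam. The summed level of the 10 was 4.66 to 4.94 in MRL mice and 6.81 to 6.89 in LPR mice. Of 4 tubular injury markers, Lcn2 and Vcam1 were higher (50%, against 7.12% of all genes). Havcr1 (0.34) and Krt20 (0.53) did not pass, and their groups overlapped. The summed level of the 4 was 1.58 to 1.86 in MRL mice and 2.96 to 3.65 in LPR mice. The proximal tubule markers Lrp2, Slc5a2 and Slc5a12 were lower (30%, against 5.47% of all genes), and the other 7 did not pass. The summed level of the 10 was 10.06 to 10.16 in MRL mice and 9.71 to 9.91 in LPR mice. The summed level of the 6 markers of other segments was also lower, 8.30 to 8.40 in MRL mice and 8.14 to 8.15 in LPR mice, although 0 of the 6 passed in limma and at an unadjusted p under 0.05 2 were below zero and 1 above. Fas itself, on its brighter probe, did not pass the threshold (log2 change -0.47, limma adjusted p = 0.234), and a second probe, above background in 0 of 3 MRL mice, was higher by a bound of at least 1.47-fold. Between 69.6% and 73.5% of the spots of an array were well above background, the most in LPR 1, and no spot was saturated. On the slide, row 1 held the 3 MRL arrays and LPR 1, and row 2 held LPR 2 and LPR 3. Row 2 thus held no MRL array. A setting with the slide row as a term therefore gives LPR 1 minus the mean of the MRL mice as the change.

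In LPR mice, 8 of the 66 Cyp genes were lower, 3 were higher, and 55 did not pass. The 3 are 4.55% of the Cyp genes, against 7.12% of all genes tested, and the 8 are 12.1%, against 5.47% of all genes tested. The median log2 change was -0.19 over the Cyp genes and -0.12 over all genes, and 44 of 66 Cyp genes (66.7%) were below zero against 67.5% of all genes. In 24 Cyp genes (36.4%) every LPR mouse was below every MRL mouse, against 25.6% of all genes, and in 5 (7.58%) every LPR mouse was above, against 11.7% of all genes. The 3 higher genes were Cyp4f18, Cyp1b1 and Cyp4v3. The 8 lower genes were Cyp4f15, Cyp2c55, Cyp2j13, Cyp2s1, Cyp2j8, Cyp2d13, Cyp1a1 and Cyp2j5. In a whole kidney, fewer cells of a type and less RNA per cell cannot be told apart.

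The count of lower Cyp genes moved with the settings and with single mice, as did the count over all genes. With normexp background correction it was 18 and with a median shift 5, beside 3 higher genes in both. Without MRL 1 it was 4, without MRL 2 it was 1, and without MRL 3 it was 1. Without LPR 1 it was 3, without LPR 2 it was 10, and without LPR 3 it was 2. Settings with the slide row rest on LPR 1 alone for the change, as row 2 held no MRL array. With the slide row as a term, 2 were higher (Cyp4f18 and Cyp4v3) and 2 were lower (Cyp2c55 and Cyp2r1). Within slide row 1 alone, where LPR 1 was the only LPR array and was assumed to vary like the MRL arrays, 1 gene was higher (Cyp4f18) and 1 was lower (Cyp2c55).

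**Figure D1:**
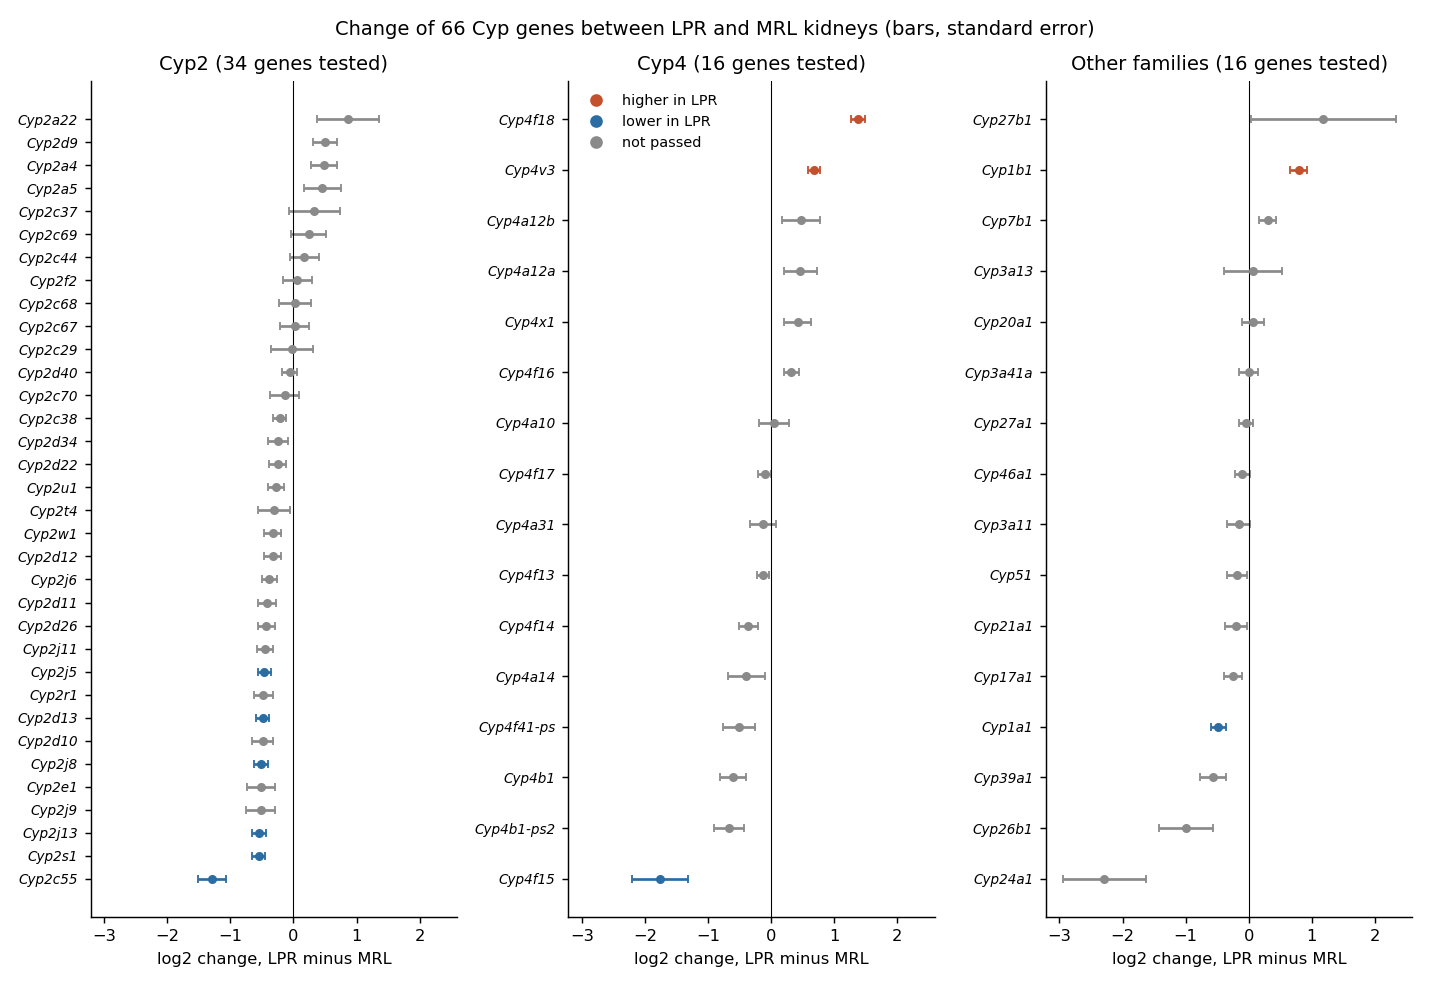
Log2 change, LPR minus MRL, of the 66 tested Cyp genes, with the standard error as a bar, in panels for Cyp2 (34 genes), Cyp4 (16 genes) and the other families (16 genes). Orange points are higher in LPR mice, blue points lower and grey points did not pass; all coloured Cyp2 points lie left of zero, and the largest grey change is that of Cyp24a1 at -2.29.

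Upstream sequence is shown for 3 pairs of called genes, to let a reader set side by side Cyp1a1 with Cyp1b1 and Cyp4f15 with Cyp4f18, relatives with opposite calls, and Cyp2j5 with Cyp2j13, relatives that both were lower. Each line is the 250 bases before the transcription start in RefSeq (GRCm38.p6), on the strand of the gene. Capitals mark TATAAA, the letters of the TATA box, GCGTG, the core bound by the aryl hydrocarbon receptor, and AGGTCA, a half-site of nuclear receptors, on either strand.
Cyp1a1, chr9:57697363-57697612, plus strand: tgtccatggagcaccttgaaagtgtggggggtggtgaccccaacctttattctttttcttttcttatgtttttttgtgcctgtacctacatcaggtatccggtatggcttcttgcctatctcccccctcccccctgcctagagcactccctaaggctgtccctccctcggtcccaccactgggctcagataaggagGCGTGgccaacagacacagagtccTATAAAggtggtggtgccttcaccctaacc
Cyp1b1, chr17:79715062-79715311, minus strand: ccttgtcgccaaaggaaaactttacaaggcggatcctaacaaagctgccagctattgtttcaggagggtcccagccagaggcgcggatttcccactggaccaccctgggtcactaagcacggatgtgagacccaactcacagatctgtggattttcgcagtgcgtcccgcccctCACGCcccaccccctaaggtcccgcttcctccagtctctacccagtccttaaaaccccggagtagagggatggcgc
Cyp4f15, chr17:32685409-32685658, plus strand: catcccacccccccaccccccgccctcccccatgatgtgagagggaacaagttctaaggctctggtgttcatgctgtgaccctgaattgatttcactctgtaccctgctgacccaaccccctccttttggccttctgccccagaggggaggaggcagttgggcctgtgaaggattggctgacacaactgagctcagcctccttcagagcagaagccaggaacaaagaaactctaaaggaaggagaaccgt
Cyp4f18, chr8:72009627-72009876, minus strand: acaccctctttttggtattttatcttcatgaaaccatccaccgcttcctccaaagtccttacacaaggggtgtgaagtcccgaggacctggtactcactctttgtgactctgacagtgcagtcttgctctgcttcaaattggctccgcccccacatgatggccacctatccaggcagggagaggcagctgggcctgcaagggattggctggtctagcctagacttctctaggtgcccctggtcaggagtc
Cyp2j5, chr4:96664120-96664369, minus strand: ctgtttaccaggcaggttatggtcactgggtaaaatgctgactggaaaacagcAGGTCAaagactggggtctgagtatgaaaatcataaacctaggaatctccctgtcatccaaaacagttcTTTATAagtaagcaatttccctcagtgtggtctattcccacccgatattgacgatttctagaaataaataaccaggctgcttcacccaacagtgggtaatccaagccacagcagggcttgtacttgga
Cyp2j13, chr4:96077541-96077790, minus strand: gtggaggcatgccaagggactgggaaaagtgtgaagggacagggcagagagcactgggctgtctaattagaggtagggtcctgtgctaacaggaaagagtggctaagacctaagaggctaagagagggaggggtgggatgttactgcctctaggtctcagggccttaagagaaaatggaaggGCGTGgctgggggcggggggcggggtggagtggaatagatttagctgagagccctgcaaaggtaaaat

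The windows of 46 of the 66 tested genes were matched by symbol, in 50 windows. TATAAA stood in 19 of the 50 (38.0%), against 12.4% of 32851 mouse windows of the same length. GCGTG stood in 13 (26.0%) against 28.2%, AGGTCA in 6 (12%) against 14.0%, and AGTTCA, a half-site used by the vitamin D receptor, in 6 (12%) against 11.8%. Both Cyp1a1 and Cyp1b1 hold GCGTG, although their calls were opposite. The windows of Cyp4f15 and Cyp4f18 were 50.2% identical in a global alignment and those of Cyp1a1 and Cyp1b1 44.1%, against a median of 46.0% over all 1035 pairs of Cyp genes. A match of letters is a description of the window and not a binding site.

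Cyp4f18, which hydroxylates leukotriene B4 in neutrophils, had the largest rise. On its brightest probe the levels were -1.78, -1.95 and -1.84 in the MRL mice and -0.60, -0.40 and -0.47 in the LPR mice. The groups were far apart, and the log2 change of 1.37 (standard error 0.11) is 2.58-fold (limma adjusted p = 0.000345). Its 3 probes lie on chromosome 8 (mm9, 74512381 to 74513763). The second probe lies within 1 base of the brightest and gave 1.21 (limma adjusted p = 0.00101). The dimmest was above background in every LPR mouse but in 0 of 3 MRL mice, so its rise is a bound of at least 4.17-fold. It entered the tests through the LPR mice alone, and its p is not given. For the bound, MRL signals under the detection limit of their array were set to that limit, the lowest signal called well above background there. Cyp4f18 passed under all 20 alternative settings, with log2 changes from 1.14 to 1.94. Of the 10 leukocyte markers, 8 were also higher, and the part of leukocytes in this rise was not tested.

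Cyp4v3, the mouse counterpart of a human hydroxylase of medium-chain fatty acids, was at -0.87, -0.93 and -0.88 in the MRL mice and at -0.12, -0.33 and -0.20 in the LPR mice. The log2 change was 0.68 (standard error 0.10, limma adjusted p = 0.00739), and the groups did not overlap. It passed under all 20 alternatives, and within slide row 1 it was 0.77 with an adjusted p of 0.0569 in limma.

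Cyp1b1, a hydroxylase of estrogens and polycyclic hydrocarbons found outside the liver, was at 0.34, 0.73 and 0.67 in the MRL mice and at 1.40, 1.34 and 1.36 in the LPR mice. The LPR mice were close together and all above the MRL mice, with a log2 change of 0.79 (standard error 0.13, limma adjusted p = 0.0101). With the slide row as a term it was 0.83 with an adjusted p of 0.0817 in limma, the only alternative of 20 in which it did not pass.

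Cyp1a1, the classical target of the aryl hydrocarbon receptor, went the other way. Its levels were -2.39, -2.53 and -2.41 in the MRL mice and -3.01, -2.75 and -3.0 in the LPR mice. The groups did not overlap, and the log2 change was -0.48 (standard error 0.12, limma adjusted p = 0.0428). This call held in 9 of 20 alternatives and, among the settings that left out 1 mouse, only without LPR 2. The third member of the family, Cyp1a2, was not well above background on any array. Ahr, the receptor, and Arnt, its partner, changed by -0.16 and -0.18 and did not pass (limma adjusted p = 0.477 and 0.27).

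**Figure D2:**
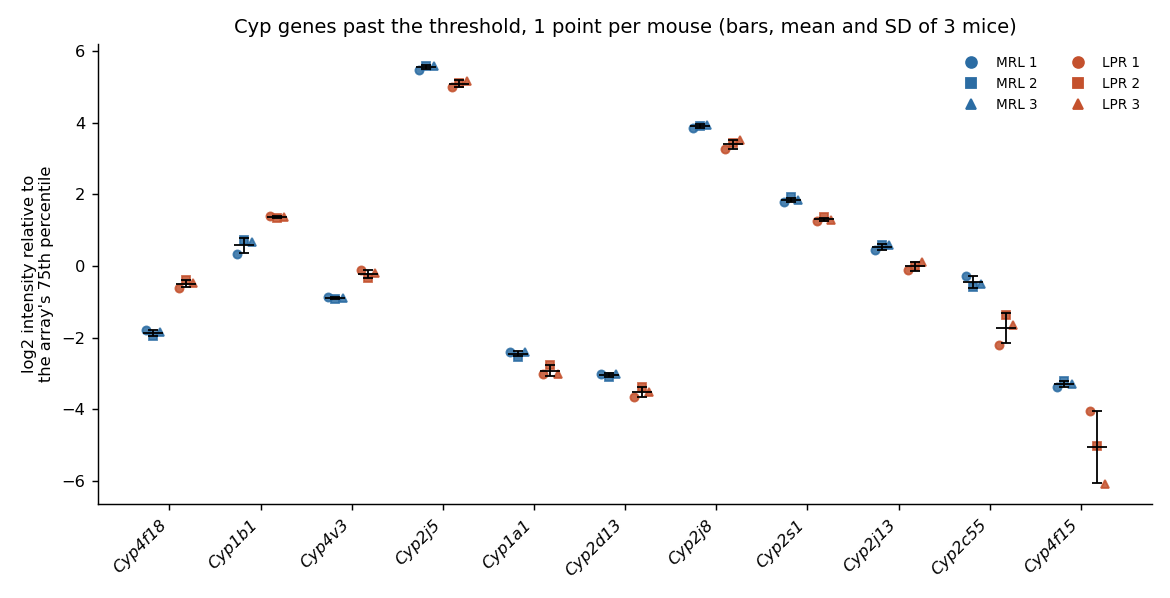
Log2 intensity relative to the 75th percentile of the array for the 11 Cyp genes past the threshold, with 1 point per mouse (blue MRL, orange LPR) and the mean and SD of 3 mice as black bars; levels are comparable between mice, not between genes. The groups of all 11 genes are separate, and the LPR mice of Cyp4f15 spread from -4.05 to -6.07.

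The Cyp2 family, the largest with 50 genes on the array and 34 tested, had 0 higher genes and 6 lower ones in limma, and at an unadjusted p under 0.05 1 was above and 14 were below zero, against 10.5% and 18.9% of all genes. These 6 are 17.6% of the tested Cyp2 genes, against the 5.47% of all genes given above. Its median log2 change was -0.29, and in 17 genes (50%) every LPR mouse was below every MRL mouse, against 25.6% of all genes.

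The Cyp2j subfamily, epoxygenases of arachidonic acid, lies in 1 cluster on chromosome 4 (probes between 95709356 and 96295971 in mm9), and all 6 of its genes on the array were above background in every mouse. In all 6 the LPR mice were below the MRL mice without overlap, which held for 25.6% of all genes, and 3 passed the threshold, against 5.47% of all genes that were lower. Cyp2j5, the epoxygenase best known from mouse kidney, was at 5.48, 5.59 and 5.59 in the MRL mice and at 5.0, 5.10 and 5.18 in the LPR mice. The mice of each group lay close together, and the log2 change of -0.46 (standard error 0.10) is 1.38-fold (limma adjusted p = 0.0318). A second probe of the gene gave -0.72 (limma adjusted p = 0.00455).

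Cyp2j8 was at 3.86, 3.92 and 3.95 in the MRL mice and at 3.27, 3.44 and 3.51 in the LPR mice, a log2 change of -0.51 (standard error 0.11, limma adjusted p = 0.0273). Cyp2j13 was at 0.45, 0.59 and 0.59 in the MRL mice and at -0.12, -0.01 and 0.12 in the LPR mice, a log2 change of -0.55 (standard error 0.11, limma adjusted p = 0.0223). All 4 probes of Cyp2j13 were lower, with changes from -0.55 to -1.43, so the brightest gave the smallest fall. The other members gave -0.45 for Cyp2j11, -0.38 for Cyp2j6 and -0.52 for Cyp2j9, and did not pass (limma adjusted p = 0.0563, 0.0825 and 0.187). In Cyp2j9 the LPR mice ranged from 0.08 to -0.84, close to the lowest MRL mouse at 0.14. With the slide row as a term, which leaves LPR 1 against the MRL mice, Cyp2j5, Cyp2j8 and Cyp2j13 changed by -0.56, -0.64 and -0.66. Leaving out 1 mouse ended the call of Cyp2j5 for each of the 6 mice, of Cyp2j8 for each mouse but LPR 2, and of Cyp2j13 for MRL 2, MRL 3 and LPR 1.

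The Cyp2d subfamily, drug and steroid hydroxylases on chromosome 15, showed lower means in 8 of 9 tested genes, against 67.5% of all genes, and 1 of the 9 was called lower (11.1%, against 5.47%). Cyp2d13, whose probe was designed to a transcript listed as non-coding, was at -3.0, -3.09 and -3.01 in the MRL mice and at -3.66, -3.38 and -3.52 in the LPR mice. The log2 change was -0.49 (standard error 0.11, limma adjusted p = 0.0342), and a dimmer probe gave -0.80 without passing (limma adjusted p = 0.186). The call held only without LPR 2 among the settings that left out 1 mouse. In 6 of the 9 genes, among them Cyp2d26, Cyp2d10 and Cyp2d11 with changes of -0.43, -0.49 and -0.42, every LPR mouse was below every MRL mouse, as in 25.6% of all genes. LPR 1 was the lowest mouse in each of these 6. Cyp2d9 stood apart from its neighbours with a log2 change of 0.50 that did not pass (limma adjusted p = 0.133).

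**Figure D3:**
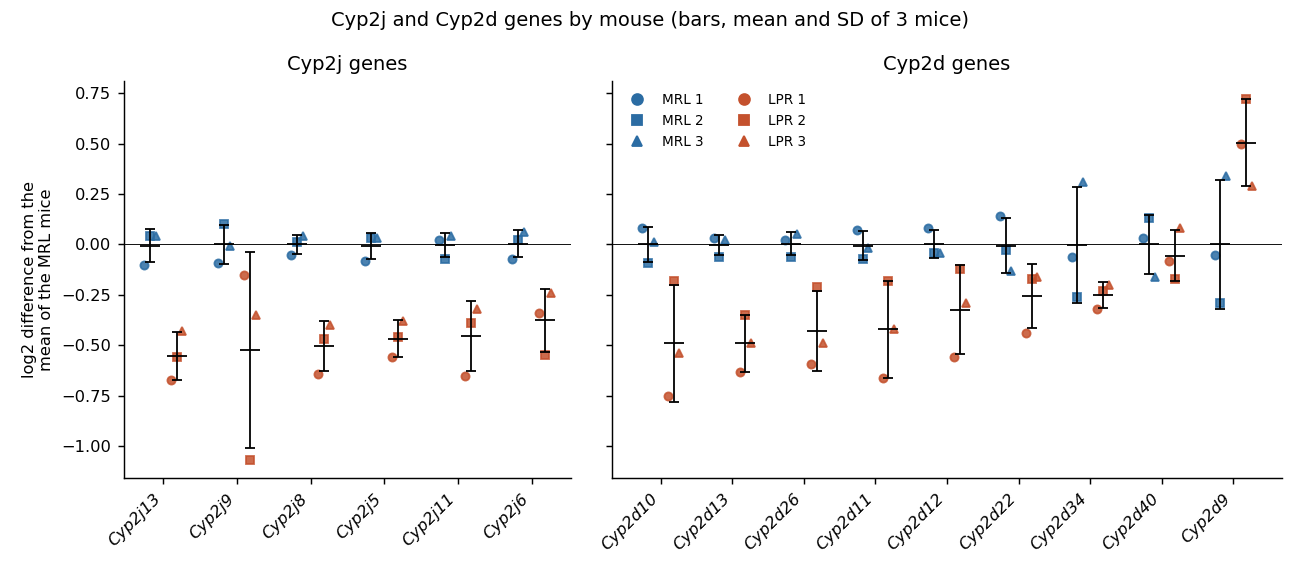
Difference of each mouse from the mean of the MRL mice, on the log2 scale, for the 6 Cyp2j and 9 Cyp2d genes, with the mean and SD of 3 mice as black bars (blue MRL, orange LPR). All LPR points of the Cyp2j genes lie below the MRL points, whereas Cyp2d34, Cyp2d40 and Cyp2d9 overlap.

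Cyp2c55, an enzyme known to hydroxylate arachidonic acid, had the largest fall of the Cyp2 genes. It was at -0.27, -0.57 and -0.49 in the MRL mice and at -2.19, -1.36 and -1.64 in the LPR mice. The log2 change of -1.29 (standard error 0.22) is 2.44-fold (limma adjusted p = 0.0115), it passed without each mouse in turn, and within slide row 1 it was -1.75 (limma adjusted p = 0.0215). A second, much dimmer probe gave 0.04 and did not pass (limma adjusted p = 0.912), and the mean of both probes was -0.63 (limma adjusted p = 0.00723). Of 20 alternatives, the call was lost only in the methods' t-test, with an adjusted p of 0.0715. The other 8 tested Cyp2c genes did not pass, with changes from -0.22 for Cyp2c38 to 0.33 for Cyp2c37.

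Cyp2s1, an enzyme of epithelia outside the liver, was at 1.79, 1.92 and 1.84 in the MRL mice and at 1.27, 1.36 and 1.28 in the LPR mice. The log2 change was -0.55 (standard error 0.10, limma adjusted p = 0.0145), and the mice within a group were close together. The call held in 16 of 20 alternatives and was lost without MRL 2, without MRL 3, without LPR 3 and with the slide row as a term, with limma adjusted p of 0.0692, 0.0562, 0.0592 and 0.0897.

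Not every Cyp2 gene was lower. Cyp2a4 and Cyp2a5, hydroxylases of steroids and coumarin, and Cyp2a22 had means above those of the MRL mice by 0.48, 0.46 and 0.87, with overlapping groups, and did not pass (limma adjusted p = 0.179, 0.32 and 0.279). Cyp2e1, the ethanol-inducible enzyme, gave -0.51 (limma adjusted p = 0.169), with LPR 3 at 3.17 above the lowest MRL mouse at 2.95. The 10 proximal tubule markers had a median change of -0.26, from -0.84 for Slc5a12 to 0.03 for Slc13a3. The part of the tubule markers in the falls of Cyp2 genes was not tested.

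Of 22 Cyp4 genes on the array, 16 were tested, and 2 were higher (12.5%, against 7.12% of all genes) and 1 lower (6.25%, against 5.47%). The median log2 change of -0.12 was that of all genes. The 5 tested Cyp4a genes, fatty acid hydroxylases on chromosome 4, did not pass. Cyp4a12a and Cyp4a12b had changes of 0.46 and 0.47, Cyp4a10 0.05, Cyp4a31 -0.13 and Cyp4a14 -0.39, and their groups overlapped. Without MRL 2, Cyp4a12a and Cyp4a12b changed by 0.76 and 0.83 and passed (limma adjusted p = 0.0406 and 0.0466). Cyp4b1, a fatty acid hydroxylase of kidney and lung, was at 6.29, 6.00 and 6.62 in the MRL mice and at 5.38, 5.93 and 5.78 in the LPR mice. Its groups did not overlap, yet the change of -0.60 did not pass (standard error 0.21, limma adjusted p = 0.104).

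Of 7 tested Cyp4f genes, 6 lie on chromosome 17 and Cyp4f18 on chromosome 8. Cyp4f15, a relative of Cyp4f18 on chromosome 17, was at -3.37, -3.20 and -3.30 in the MRL mice and at -4.05, -5.03 and -6.07 in the LPR mice, and 2 of the 3 LPR mice were well above background. Its change of -1.76 (standard error 0.45) was just past the threshold (limma adjusted p = 0.0491), and LPR 3 was not above background. The change was -0.74 with normexp, -0.77 with the slide row as a term, -1.25 without LPR 3 and -2.26 without LPR 1. The call was lost in 12 of 19 alternatives, among them every setting without 1 mouse except LPR 1. Cyp4f13 gave -0.13 on its brightest probe, which did not pass (limma adjusted p = 0.42), and -0.55 on a dimmer one, which did (limma adjusted p = 0.0301). Cyp4f16 had every LPR mouse above every MRL mouse, with a change of 0.32 that did not pass (limma adjusted p = 0.121). Cyp4x1 was called well above background in 0 of 3 MRL mice and in all 3 LPR mice, so it entered the tests through the LPR mice alone. Its groups overlapped, and it did not pass.

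None of the 4 vitamin D enzymes passed, although the largest log2 change of all 66 Cyp genes was among them. Cyp24a1, which inactivates vitamin D hormone, was at 2.19, 3.55 and 4.57 in the MRL mice and at 0.40, 0.93 and 2.11 in the LPR mice. The highest LPR mouse was just under the lowest MRL mouse, and each group spread widely (SD 1.19 and 0.88, n = 3). The change of -2.29 (standard error 0.66) is 4.89-fold (limma adjusted p = 0.067), and it passed in 5 of 20 alternatives. Without MRL 1 it was -2.91 (limma adjusted p = 0.0346), and without MRL 3 it was -1.72 (limma adjusted p = 0.146).

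Cyp27b1, which makes the hormone, was at -1.53, 0.69 and -3.94 in the MRL mice and at -1.47, -0.69 and 0.92 in the LPR mice. The groups overlapped and spread widely (SD 2.31 in MRL and 1.22 in LPR mice, n = 3), and the change of 1.18 (standard error 1.15) did not pass (limma adjusted p = 0.519). With the slide row as a term it was 0.12. Without MRL 3 it was 0.01, without LPR 3 0.51 and without MRL 2 2.32. MRL 3, the mouse lowest in Cyp27b1, was the highest in Cyp24a1. Cyp2r1, which makes the storage form of the vitamin, was at 1.00, 1.09 and 1.04 in the MRL mice and at 0.25, 0.71 and 0.72 in the LPR mice. Its change of -0.48 did not pass (standard error 0.15, limma adjusted p = 0.0838) without overlap of the groups. With the slide row as a term, which leaves LPR 1 against the MRL mice, the change of Cyp2r1 was -0.79. Cyp27a1, a mitochondrial sterol hydroxylase that also acts on the vitamin, gave -0.05 (limma adjusted p = 0.78).

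The receptor of the hormone, Vdr, which is known to switch on Cyp24a1 in the kidney, was lower. It was at 3.28, 3.42 and 4.19 in the MRL mice and at 2.70, 2.66 and 2.55 in the LPR mice. The change was -0.99 (standard error 0.24, limma adjusted p = 0.0387), and a second probe gave -1.05 (limma adjusted p = 0.0341). The call was lost in 8 of 20 alternatives. Among them were the settings without MRL 2, without LPR 1, without LPR 2 and without LPR 3, with limma adjusted p of 0.0681, 0.0857, 0.0822 and 0.108.

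**Figure D4:**
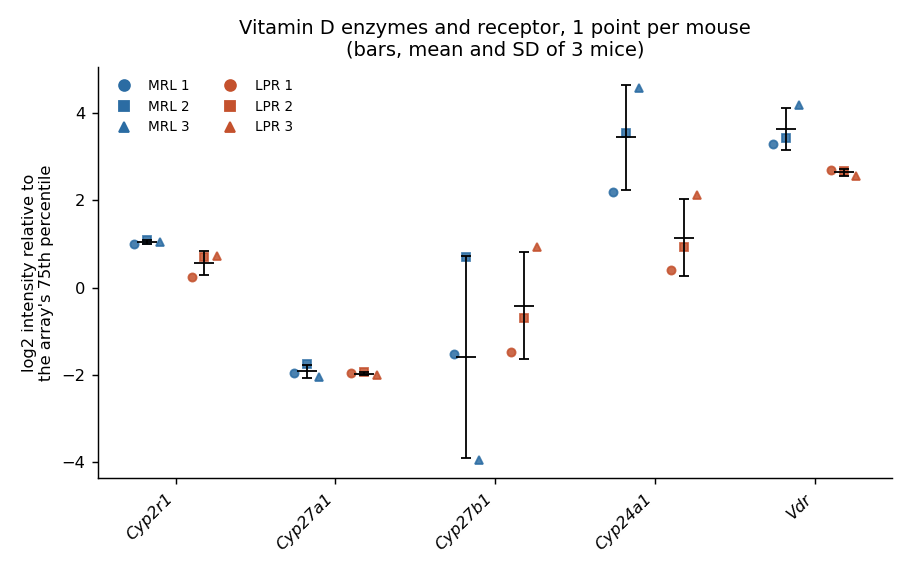
Log2 intensity relative to the 75th percentile of the array for the 4 vitamin D enzymes and Vdr, with 1 point per mouse (blue MRL, orange LPR) and the mean and SD of 3 mice as black bars. MRL 3 is the highest mouse for Cyp24a1 at 4.57 and the lowest for Cyp27b1 at -3.94.

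Of 6 enzymes of steroid hormone synthesis, Cyp11a1, Cyp11b1, Cyp11b2 and Cyp19a1 were not tested, since none of their probes was well above background on at least 3 arrays. Cyp17a1, an enzyme on the way to androgens, was at 1.68, 1.91 and 1.85 in the MRL mice and at 1.31, 1.65 and 1.75 in the LPR mice. It changed by -0.25 and did not pass (limma adjusted p = 0.297), and neither did Cyp21a1, needed for corticoids, with -0.20 (limma adjusted p = 0.478). The 5 adrenal cortex markers were all above background, and 1 of them, Akr1b7, was lower (-1.07, limma adjusted p = 0.019). That is 20%, against 5.47% of all genes. The other 4 did not pass, and the mean of Mc2r was above that of the MRL mice (0.39). The summed level of the 5, in which the brightest markers weigh most, was 0.54 to 0.63 in MRL mice and -0.12 to 0.24 in LPR mice. Of 5 liver markers, Apoa1 was not tested. Among the 4 tested, 0 were higher, against 7.12% of all genes, and 1 (25%, against 5.47%) was lower, Ttr (-1.39, limma adjusted p = 0.0314). Their median change was -0.22, whereas their summed level, in which Serpina1a was the brightest (0.54, limma adjusted p = 0.0835), was 3.31 to 3.45 in MRL mice and 3.54 to 4.11 in LPR mice.

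Of 6 enzymes of sterols, oxysterols and bile acids, the bile acid enzymes Cyp7a1 and Cyp8b1 were not well above background on any array, and the other 4 did not pass. Cyp51, the lanosterol demethylase of cholesterol synthesis, changed by -0.19 and Cyp46a1, the cholesterol hydroxylase of neurons, by -0.10, with overlapping groups. Cyp39a1, an oxysterol hydroxylase, was at 0.27, 0.44 and 0.45 in the MRL mice and at 0.01, -0.65 and 0.10 in the LPR mice, a change of -0.57 (limma adjusted p = 0.121). Cyp7b1, another oxysterol hydroxylase, was at -1.83, -1.77 and -1.70 in the MRL mice and at -1.24, -1.67 and -1.49 in the LPR mice, a change of 0.30 (limma adjusted p = 0.187). Both of these had groups without overlap.

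Cyp26b1, which breaks down retinoic acid, was at 0.44, 1.89 and 1.06 in the MRL mice and at 0.25, -0.53 and 0.71 in the LPR mice. The groups overlapped, and the change of -0.99 did not pass (standard error 0.43, limma adjusted p = 0.176). Its relatives Cyp26a1 and Cyp26c1 were not tested.

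The 3 tested Cyp3a genes and Cyp20a1 changed by -0.16 to 0.07 and did not pass. In all, 36 Cyp genes were not tested, among them all 5 Cyp2b genes and 5 of the 8 Cyp3a genes on the array. Both subfamilies are known for drug metabolism in liver.

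The partners of the enzymes were tallied in a list of 8 electron donors and epoxide hydrolases. All 8 had means below those of the MRL mice, as 67.5% of all genes did, and 1 passed (12.5%), against the 5.47% of all genes that were lower. Cyb5b, an electron carrier of the outer mitochondrial membrane, was at 2.87, 2.97 and 2.99 in the MRL mice and at 2.50, 2.23 and 2.58 in the LPR mice, a change of -0.50 (standard error 0.12, limma adjusted p = 0.0441). A second probe gave -0.28 without passing, and the call was lost without each of the 6 mice in turn, with limma adjusted p from 0.0595 to 0.131. Por, the reductase that serves all P450 enzymes of the endoplasmic reticulum, was at 4.86, 5.16 and 5.07 in the MRL mice and at 4.48, 4.80 and 4.69 in the LPR mice, a change of -0.37 (limma adjusted p = 0.117). Ephx2, which hydrolyses the epoxides that Cyp2j and Cyp2c enzymes make, changed by -0.36 (limma adjusted p = 0.136).

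Of 11 transcription factors known to control Cyp genes, 3 were lower (27.3%, against 5.47% of all genes), 0 were higher (against 7.12%) and 8 did not pass. In limma at an unadjusted p under 0.05, 5 were below zero and 0 above, against 18.9% and 10.5% of all genes. Ppara, the receptor of fatty acids that is known to switch on Cyp4a genes, was at 3.74, 4.03 and 4.48 in the MRL mice and at 3.01, 3.25 and 3.32 in the LPR mice. The groups were apart, with a change of -0.89 (standard error 0.20, limma adjusted p = 0.0322), while the Cyp4a genes described above did not pass in either direction. The others were Vdr, given above, and the bile acid receptor Nr1h4 (-0.65, limma adjusted p = 0.0197). Nr1h4 was at 3.30, 3.60 and 3.53 in the MRL mice and at 2.72, 2.96 and 2.82 in the LPR mice. Without 1 mouse, Ppara passed only without MRL 1 and Nr1h4 only without MRL 1 or LPR 2. Hnf4a changed by -0.15 on its brightest probe and did not pass (limma adjusted p = 0.514), whereas a dimmer probe was lower (-0.60, limma adjusted p = 0.0125). The xenobiotic receptors Nr1i2 and Nr1i3 gave -0.43 and -0.29 and did not pass (limma adjusted p = 0.119 and 0.273).

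**Figure D5:**
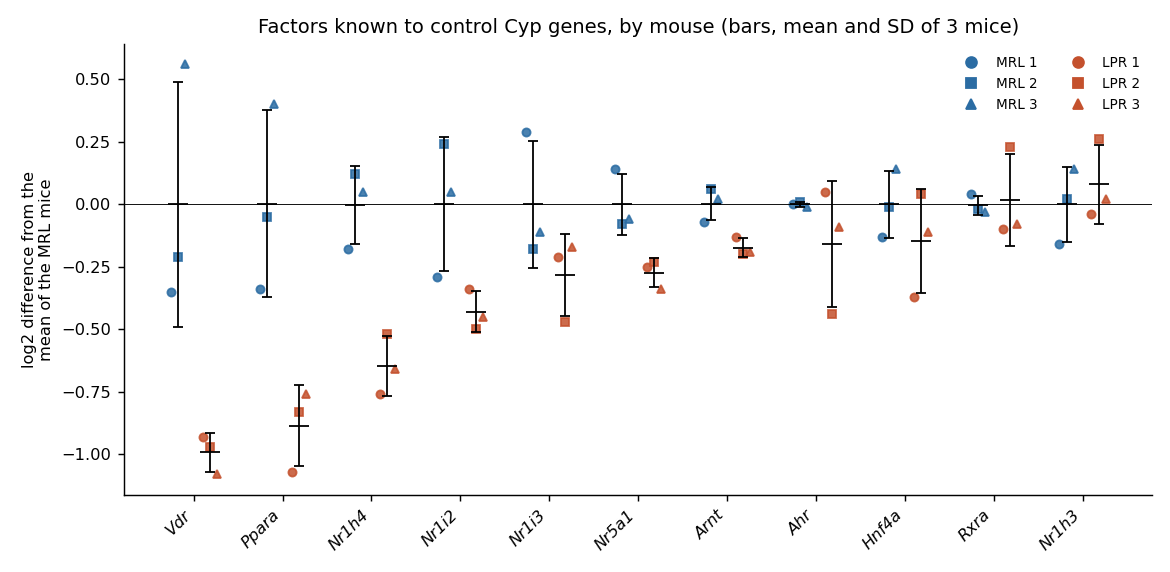
Difference of each mouse from the mean of the MRL mice, on the log2 scale, for 11 factors known to control Cyp genes, with the mean and SD of 3 mice as black bars (blue MRL, orange LPR). Vdr and Ppara have the largest falls, -0.99 and -0.89, and Nr1h3 and Rxra lie at 0.08 and 0.02.

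Related Cyp genes have similar transcripts, and a probe can bind more than its own. Among the tested probes of 60 bases, compared with each other only and not with the transcripts, 1 pair of different genes was at least 85% identical. That pair was Cyp2c67 and Cyp2c68 (93.2% over 59 bases), whose changes were both 0.02. The highest identity among the other pairs was 73.5%. Of 19 genes with more than 1 tested probe, 16 had changes of the same sign on all of them, 3 had some probes past the threshold and others not (Cyp2c55, Cyp2d13 and Cyp4f13), and 0 had calls in both directions.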

How the data were processed

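The authors deposited spot intensities of Agilent Feature Extraction 12.0.3.1, background-subtracted but not normalized between arrays, and flags (other values) for spots above background and outlier spots. They also deposited a table of the same signals divided by each array's 75th percentile, used as an alternative. The paper's methods name Trizol for the RNA, whereas the labels name an RNeasy kit. Control and outlier spots (73 to 90 per array) were left out. Log2 intensities were shifted by the 75th percentile of the array, and spots of a probe averaged. That percentile was 942 in LPR 1 and 706 to 759 in the other arrays. LPR and MRL mice were compared by limma 3.58.1 (R 4.3.3). Upstream windows were aligned with Biopython 1.88, and figures drawn with matplotlib 3.10.9. The limma comparison and the methods' t-test were tried on simulated probe values with added changes, and the other steps were not.

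The members and gene lists were chosen with earlier results of these data known. Every tested gene of the Cyp1, vitamin D, steroid, sterol and retinoic acid lists was named, and of other genes those that passed or whose probes differed. Cyp4f15, not above background on all arrays, was given by mouse, and Cyp2a, Cyp4a, Cyp4b1 and single Cyp2, Cyp4, Cyp3a and regulator genes that did not pass were named after their values were seen. The alternatives were background correction, scaling, filters on dim probes, outlier spots, an intensity trend, slide row, replicate number, averaging of probes, the methods' t-test, and leaving out each mouse. Slide row 1 alone was added after seeing the data. The precision is limited by the number of arrays, and for single genes exact permutation of 3 and 3 mice reaches 0.1 at the lowest. Some genes are not reported here.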

Additional observations from a re-analysis of the deposited data

How the results depend on the processing

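No called result reversed under any setting. With all mice, 3 Cyp genes were higher in each setting except slide row as a term, where the change is that of LPR 1 alone. The median, -0.19, ranged from -0.16 to -0.28, the latter with slide row as a term. The number of lower Cyp genes, 8, became 18 with normexp correction (offset 50), 14 with an intensity trend, 5 with a median shift, 4 with the methods' t-test, and 2 without a filter on dim probes or with slide row as a term. The number of lower Cyp2 genes, 6, became 12 with normexp, 11 with the trend, and 2 without the filter or with slide row. The 1 lower Cyp4 gene became 3 with normexp, and 0 with quantile normalization, with the percentile over detected probes, without the filter, above background on all 6 arrays, with slide row, with the mean of probes and with the t-test. In slide row 1 alone, chosen after seeing the data, 1 Cyp gene was higher (1 Cyp4) and 1 lower (1 Cyp2, 0 Cyp4). Without 1 mouse at a time, 3 to 5 Cyp genes were higher and 1 to 10 lower, 1 to 9 Cyp2 genes were lower, 2 to 4 Cyp4 genes were higher and 0 to 1 lower, and the median was -0.25 to -0.12. The cause of these changes was not tested.

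With the replicate number as a block, 4 Cyp genes were lower (3 Cyp2, 0 Cyp4) and 3 higher, and Cyp24a1 passed (limma adjusted p = 0.00487). Deviations of same-numbered mice correlated across probes by 0.12, 0.02 and 0.01, so the numbers were not taken as a pairing.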

Other observations

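Some P450 probes carry no Cyp gene name on the array. A probe annotated as Cyp2j7 was at -1.51, -1.53 and -1.61 in the MRL mice and at -2.38, -2.35 and -1.99 in the LPR mice, a log2 change of -0.69 (standard error 0.13, limma adjusted p = 0.0197), and the groups did not overlap. A probe for the Cyp2d37 pseudogene gave -0.35 without overlap and did not pass (limma adjusted p = 0.0757). The P450 enzymes that bear other names, Ptgis (prostacyclin synthase) and Tbxas1 (thromboxane synthase), changed by -0.24 and 0.09 and did not pass (limma adjusted p = 0.34 and 0.613). These probes were chosen after the rule of the family and were not counted in it.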
